A study of Mus musculus with 12 samples.

Results

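A set of 10 genes that mark the endothelial cells of the liver, the cells that line its blood vessels and sinusoids, were followed in the livers of mice on a high-fat diet. The 10 genes were Egfl7, Pecam1, Cdh5, Kdr, Tek, Eng, Stab1, Stab2, Lyve1 and Clec4g, found by symbol among the 23849 gene symbols of the FPKM table (fragments per kilobase of transcript, scaled by the mapped fragments of the library, so a level per length). The genes were chosen by symbol as endothelial markers, with results of these same data in view, and which measured values they were selected on is not recorded. The p-values given here therefore describe each comparison across the table and are not independent evidence about the list. Of the 10 genes, 8 had a mean of at least 1 FPKM and entered the main fit with 9806 genes in all. Tek and Lyve1 lay under that limit, and their differences come from a fit of 17066 genes with no minimum.

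Liver RNA from 12 male C57BL/6J mice, 8 weeks old according to the series description, was sequenced. Every mouse was fed a high-fat diet, begun before treatment per the study's text, and was treated for 2 weeks with vehicle or with Libramed. Libramed is taken here, as an assumption, to be the gel-forming fibre complex that the study's text names Policaptil Gel Retard. Livers were taken at ZT0, when the lights come on and the mouse's active phase ends, or at ZT12, when the lights go off and feeding starts. This gave 4 groups of 3 mice: vehicle ZT0, vehicle ZT12, Libramed ZT0 and Libramed ZT12. No group on normal diet was analysed here, so the diet is common to all comparisons. The vehicle was drinking water given by gavage, per the study's methods. Gavage was daily, shortly before the lights went off. The time since the last gavage may therefore differ between ZT0 and ZT12 livers and cannot be told apart from time of day. All 7 evening clock genes examined (among them Dbp and Per2) were higher at ZT12 than at ZT0 with either treatment, at an adjusted p under 0.05, as the time labels imply. Relative depth ranged from 0.712 to 1.26 between libraries, absolute depth is unknown, and no pair of libraries held identical values.

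Sinusoidal endothelial cells form the fenestrated wall between blood and hepatocytes. They take up hyaluronan, collagen fragments and other waste from the blood through scavenger receptors and lectins, a task in which stabilins and LYVE1 are well known. Like other endothelium, they are held together by adhesion proteins such as PECAM1 and VE-cadherin and respond to VEGF, angiopoietins and ligands of the BMP family. In whole-liver RNA, fewer cells of a type and less RNA per cell cannot be told apart, so each value below is a share of liver RNA.

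Promoter sequences are shown for 4 of the genes: Clec4g, the gene with the highest level, Egfl7, whose treatment difference had the smallest p, Kdr, a receptor that fell at ZT12, and Stab1, the one gene of the main fit with no call for time. They run from 250 bases before to 50 bases after a RefSeq start on GRCm38.p6, in the direction of transcription. Capitals mark AGGAAG, one longer form of the GGAA core that ETS factors bind, or its reverse complement CTTCCT. The capitals of Clec4g that run to 10 letters are a pair of overlapping matches. For Egfl7, 1 of 3 listed starts is shown.
Clec4g, chr8:3720602-3720901 (-): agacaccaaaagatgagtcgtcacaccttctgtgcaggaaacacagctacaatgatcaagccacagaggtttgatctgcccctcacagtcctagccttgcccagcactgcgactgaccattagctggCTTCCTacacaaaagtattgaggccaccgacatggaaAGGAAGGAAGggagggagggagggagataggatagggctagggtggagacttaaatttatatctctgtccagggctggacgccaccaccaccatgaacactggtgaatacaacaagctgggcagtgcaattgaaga
Egfl7, chr2:26583615-26583914 (+): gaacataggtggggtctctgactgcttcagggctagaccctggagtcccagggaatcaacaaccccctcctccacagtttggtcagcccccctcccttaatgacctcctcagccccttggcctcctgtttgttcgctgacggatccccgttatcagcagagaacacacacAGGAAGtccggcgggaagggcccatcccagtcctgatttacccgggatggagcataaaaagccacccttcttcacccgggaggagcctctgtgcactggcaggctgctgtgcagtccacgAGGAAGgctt
Kdr, chr5:75978406-75978705 (-): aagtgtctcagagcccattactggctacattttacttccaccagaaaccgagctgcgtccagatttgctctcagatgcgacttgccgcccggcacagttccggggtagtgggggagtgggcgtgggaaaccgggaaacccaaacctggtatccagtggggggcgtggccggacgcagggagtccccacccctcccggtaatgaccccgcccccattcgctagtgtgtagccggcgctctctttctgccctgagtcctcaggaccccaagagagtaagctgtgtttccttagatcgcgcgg
Stab1, chr14:31168592-31168891 (-): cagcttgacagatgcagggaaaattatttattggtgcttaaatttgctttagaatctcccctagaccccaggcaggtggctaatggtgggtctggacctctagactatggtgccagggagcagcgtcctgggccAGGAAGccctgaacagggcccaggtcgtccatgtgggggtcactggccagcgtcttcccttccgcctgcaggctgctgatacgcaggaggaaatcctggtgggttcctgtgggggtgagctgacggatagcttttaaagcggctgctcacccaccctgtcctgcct
The RefSeq table held 9 promoters of 7 of the 10 genes, and none was listed for Pecam1, Cdh5 and Lyve1. AGGAAG was found on either strand in 6 of these 9 promoters, from 5 of the 7 genes (Clec4g, Egfl7, Eng, Stab1 and Stab2), and in 35.4% of all 32851 promoters of the same length. Kdr, which fell at ZT12, had no AGGAAG match in this window, and Stab1 had 1. The shorter GGAA does occur in the printed Kdr sequence and was not counted. The clock E-box CACGTG was in none of the 9 and in 7.15% of all promoters. Such a match describes letters and is not a binding site.

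The 10 genes covered a wide range of levels. Clec4g (mean over 12 livers 19.2 FPKM), Egfl7 (11.4 FPKM) and Eng (9.98 FPKM) made up 37.4%, 22.3% and 19.4% of their summed FPKM. Stab1 (3.03 FPKM), Stab2 (2.33 FPKM), Pecam1 (1.45 FPKM), Cdh5 (1.36 FPKM) and Kdr (1.35 FPKM) were intermediate. Tek (0.749 FPKM) and Lyve1 (0.478 FPKM) were the lowest. All 10 genes had a value above 0 in every liver, whatever the group. The summed level of the 10 genes was 57.3 ± 7.39 FPKM (SD, n = 3) in vehicle ZT0, 35.8 ± 5.65 in vehicle ZT12, 67 ± 5.8 in Libramed ZT0 and 45.2 ± 1.15 in Libramed ZT12. Within either treatment every ZT12 liver had a lower sum than every ZT0 liver.

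**Figure D1:**
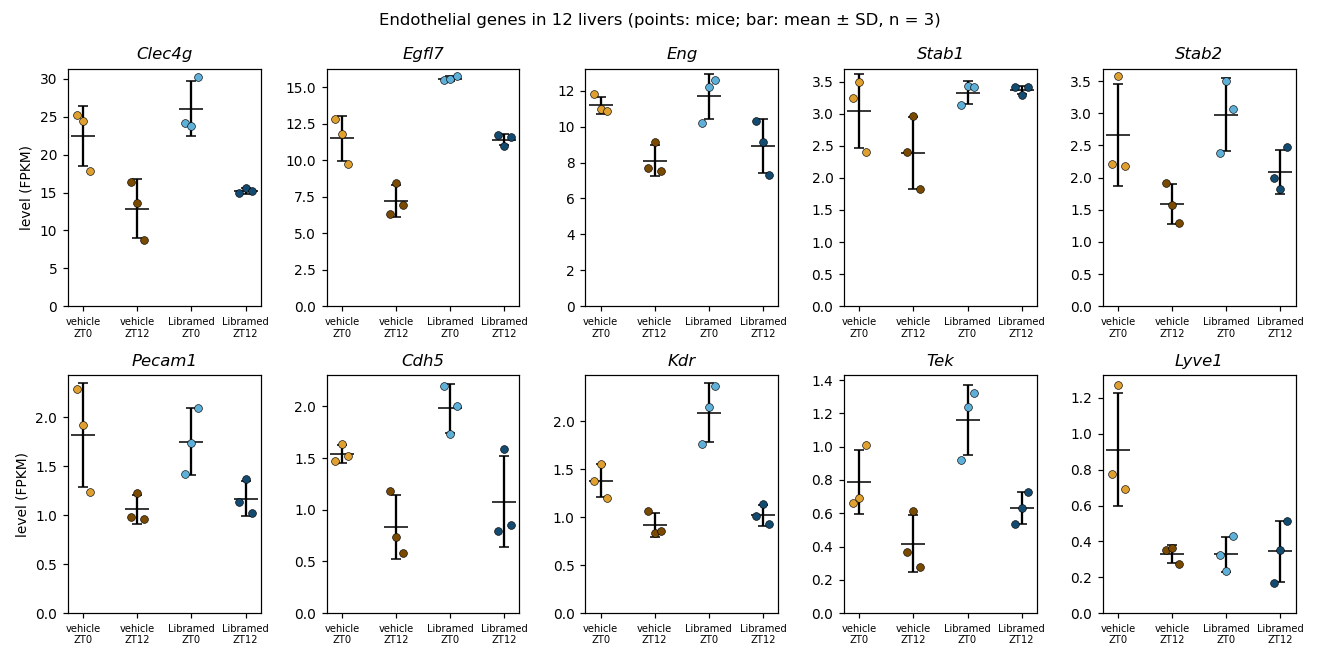
Level in FPKM (vertical axis, linear, from 0) of each of the 10 genes in the 4 groups, with 1 point for each mouse and the mean ± SD of 3 mice. Most genes stood lower at ZT12 than at ZT0 with either treatment, Stab1 lay between 3.13 and 3.43 FPKM in both Libramed groups, and Lyve1 was high only in the vehicle ZT0 livers, where it lay between 0.69 and 1.27 FPKM.

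To examine the difference between the start and the end of the active phase, the times were compared inside each treatment and then over both. Endothelial genes were lower at ZT12. Over both treatments, 7 of the 8 genes in the main fit fell at an adjusted p under 0.05 (limma, Benjamini-Hochberg), all but Stab1, against a background of 13.8% of the 9806 genes called lower. At an unadjusted p under 0.05 the same 7 were lower, with 19.3% of all genes. The median difference of the 8 genes was -0.44 on the log2(FPKM + 1) scale, where the median of all genes was 0.01. This scale understates the change of genes with low values.

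The same comparison was made in vehicle and in Libramed livers, which have no sample in common. With vehicle, 7 of 8 were lower at an unadjusted p under 0.05 (background 13.0%), and 2 of them, Egfl7 and Eng, also at an adjusted p under 0.05 (background 4.78%). The count of 2 dropped to 1 without vehicle ZT12 replicate 1 and to 0 without any one of the other 5 vehicle livers, and the count of 7 dropped to 4 without vehicle ZT12 replicate 3. With Libramed, 7 of 8 were again lower (background 13.4%), of which Clec4g, Egfl7 and Kdr had an adjusted p under 0.05 (background 5.36%). Without Libramed ZT0 replicate 2 or 3 the count of 7 became 4. These 7 genes were the same in both treatments, and 7.07% of all genes were called lower in both. The ZT12 livers all lay under the ZT0 livers for 7 of the 8 genes with vehicle (background 15.8%), or 9 of all 10, and for 5 of the 8 with Libramed (background 15.8%), or 6 of all 10.

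Among the scavenger and lectin receptors, Clec4g had the largest difference with time on the log2 scale. It encodes LSECtin, a C-type lectin of the sinusoidal lining. In vehicle ZT0 livers it stood at 25.2, 24.5 and 17.9 FPKM and in vehicle ZT12 livers at 16.4, 13.6 and 8.78 FPKM. In Libramed ZT0 livers it stood at 24.2, 23.8 and 30.3 FPKM and in Libramed ZT12 livers at 14.9, 15.6 and 15.2 FPKM. All ZT12 values lay under all ZT0 values within each treatment. Over both treatments the mean level fell by 42.1% (log2 difference -0.76, SE 0.13, adjusted p = 0.00111), and the differences were -0.78 (SE 0.229) with vehicle and -0.73 (SE 0.106) with Libramed.

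The stabilins are large receptors that clear hyaluronan and other ligands from the blood. Stab2 was at 2.21, 3.58 and 2.18 FPKM in vehicle ZT0 and at 1.91, 1.57 and 1.29 FPKM in vehicle ZT12. It was at 2.38, 3.5 and 3.07 FPKM in Libramed ZT0 and at 1.99, 1.82 and 2.48 FPKM in Libramed ZT12. The vehicle groups did not overlap, while the highest Libramed ZT12 liver passed the lowest Libramed ZT0 liver. Stab2 fell by 34.7% over both treatments (log2 difference -0.42, SE 0.112, adjusted p = 0.0136).

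Stab1 had no call for time, although it varied with Stab2 across the 12 livers (Pearson r = 0.67, or 0.56 once group means were removed). Whether their time differences were unlike was not tested. In the vehicle groups Stab1 was at 3.24, 3.5 and 2.4 FPKM at ZT0 and at 2.4, 2.96 and 1.83 FPKM at ZT12, with overlap. In the Libramed groups it was at 3.13, 3.43 and 3.42 FPKM at ZT0 and at 3.41, 3.29 and 3.41 FPKM at ZT12, which is the same range. Its difference with time was -0.26 (SE 0.16) with vehicle, 0.02 (SE 0.0776) with Libramed and -0.12 (SE 0.0956, adjusted p = 0.378) over both. The interaction term for these differences was 0.27 (SE 0.182, adjusted p = 0.834).

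Lyve1, a hyaluronan receptor of sinusoidal and lymphatic endothelium that some macrophages also carry, had a pattern of its own. Vehicle ZT0 livers held 0.774, 1.27 and 0.69 FPKM, above every other liver. Vehicle ZT12 livers held 0.353, 0.361 and 0.272 FPKM. Libramed ZT0 livers held 0.322, 0.233 and 0.43 FPKM and Libramed ZT12 livers 0.168, 0.35 and 0.513 FPKM, so that these 3 groups overlapped. The time difference was -0.51 (SE 0.122, adjusted p = 0.103) with vehicle and 0.01 (SE 0.11, adjusted p = 0.993) with Libramed, and their interaction was 0.52 (SE 0.169, unadjusted p = 0.0113, adjusted p = 0.675).

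The adhesion genes were lower at ZT12 as well. Pecam1, which encodes the junctional protein CD31, was at 2.29, 1.92 and 1.24 FPKM in vehicle ZT0 and at 0.981, 1.23 and 0.96 FPKM in vehicle ZT12. In the Libramed groups it was at 1.42, 1.74 and 2.1 FPKM at ZT0 and at 1.13, 1.37 and 1.02 FPKM at ZT12. The times did not overlap within either treatment, although the lowest ZT0 and highest ZT12 livers differed by little. Pecam1 fell by 37.6% over both treatments (log2 difference -0.39, SE 0.0992, adjusted p = 0.0114).

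Cdh5 encodes VE-cadherin, the cadherin of endothelial adherens junctions. It was at 1.47, 1.64 and 1.52 FPKM in vehicle ZT0 and at 1.18, 0.741 and 0.58 FPKM in vehicle ZT12. With Libramed it was at 2.2, 1.73 and 2 FPKM at ZT0 and at 0.792, 1.59 and 0.848 FPKM at ZT12. Libramed ZT12 replicate 2 stood well above the other livers of its group but still under all Libramed ZT0 livers. Cdh5 fell by 45.8% over both treatments (log2 difference -0.51, SE 0.104, adjusted p = 0.00324).

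The signalling receptors moved the same way. Kdr encodes VEGFR2, the main receptor through which VEGF acts on endothelium. Its values were 1.38, 1.55 and 1.2 FPKM in vehicle ZT0 and 1.06, 0.833 and 0.857 FPKM in vehicle ZT12. They were 1.76, 2.15 and 2.37 FPKM in Libramed ZT0 and 1.01, 1.14 and 0.924 FPKM in Libramed ZT12. No liver crossed between the times within a treatment, and Kdr fell by 44.1% over both (log2 difference -0.46, SE 0.0806, adjusted p = 0.00124). The differences were -0.31 (SE 0.0993) with vehicle and -0.61 (SE 0.103) with Libramed, and the interaction was -0.3 (SE 0.143, adjusted p = 0.755).

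Tek encodes TIE2, the angiopoietin receptor. It was at 0.662, 0.691 and 1.01 FPKM in vehicle ZT0, at 0.365, 0.612 and 0.276 FPKM in vehicle ZT12, at 0.92, 1.24 and 1.32 FPKM in Libramed ZT0 and at 0.537, 0.631 and 0.725 FPKM in Libramed ZT12. The times did not overlap within either treatment. In the fit with no minimum, Tek fell by 46.2% over both treatments (log2 difference -0.37, SE 0.0751, adjusted p = 0.00669).

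Eng encodes endoglin, a co-receptor for BMP9 and other ligands of the TGF-β family. It was at 11.8, 11 and 10.9 FPKM in vehicle ZT0 and at 7.68, 9.12 and 7.53 FPKM in vehicle ZT12, without overlap. In Libramed ZT0 it was at 10.2, 12.2 and 12.6 FPKM and in Libramed ZT12 at 10.3, 9.12 and 7.29 FPKM, where 1 ZT12 liver passed the lowest ZT0 liver. Eng fell by 25.7% over both treatments (log2 difference -0.4, SE 0.0817, adjusted p = 0.00351).

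Egfl7 encodes a protein that endothelial cells secrete into their matrix, and its gene also holds the endothelial microRNA miR-126. The mature strand, from RefSeq, is shown because its gene lies inside Egfl7, with the seed (bases 2 to 8) in capitals.
mmu-miR-126a-3p, chr2:26591402-26591423 (+), GRCm38.p6: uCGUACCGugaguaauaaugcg
Mir126a and Mir126b were listed at 0 in all 12 livers, so the microRNA itself was not measured here. Egfl7 was at 12.8, 11.8 and 9.77 FPKM in vehicle ZT0 and at 6.32, 8.45 and 6.92 FPKM in vehicle ZT12. It was at 15.5, 15.6 and 15.8 FPKM in Libramed ZT0 and at 11.7, 11 and 11.6 FPKM in Libramed ZT12. The Libramed ZT0 livers were above all others, the vehicle ZT12 livers below all others, and the remaining groups overlapped. Egfl7 fell by 31.1% at ZT12 over both treatments (log2 difference -0.51, SE 0.0775, adjusted p = 0.00049).

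**Figure D2:**
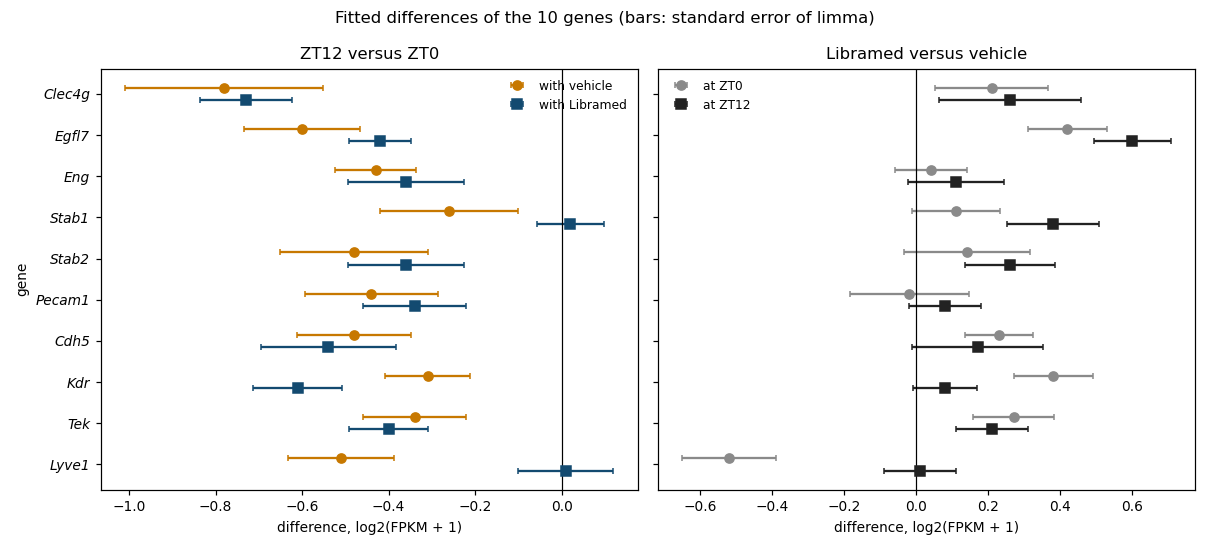
Fitted difference on the log2(FPKM + 1) scale (horizontal axis) of each gene (vertical axis), for ZT12 minus ZT0 with each treatment on the left and Libramed minus vehicle at each time on the right, with bars for the standard error. Tek and Lyve1 are from the fit with no minimum level. On the left, Clec4g lies at -0.78 and -0.73 while Stab1 and Lyve1 lie near 0 with Libramed, and on the right Egfl7 lies at 0.42 and 0.6.

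To examine the effect of the product, Libramed was compared with vehicle at each time and over both. Egfl7 was higher in Libramed livers at both times. Means of the other genes differed by -64% (Lyve1) to 52% (Kdr) at ZT0 and by 4.49% (Lyve1) to 51.1% (Tek) at ZT12, most without a call. At ZT0, 3 of the 8 genes in the main fit, Egfl7, Kdr and Cdh5, were higher with Libramed at an unadjusted p under 0.05 (background 3.42%), and the groups did not overlap for these 3 (background 5.19%). At ZT12 there were 2, Egfl7 and Stab1 (background 3.07%), again without overlap (background 5.88%). The count of 2 became 4 without vehicle ZT12 replicate 1, and 1 without vehicle ZT12 replicate 3 or Libramed ZT12 replicate 1 or 3. Over both times there were 3, Egfl7, Kdr and Stab1 (background 3.82%), or 5 without vehicle ZT12 replicate 1. By limma none of the 8 had an adjusted p under 0.05 at ZT0 (background 0%), at ZT12 (background 0%) or over both times (background 0.0102%). The median difference of the 8 genes was 0.17 at ZT0, 0.22 at ZT12 and 0.21 over both times, beside -0.02, -0.01 and -0.02 over all genes. Differences with Libramed were also mostly positive for markers of some other cells. Of 8 hepatocyte markers tested, 7 had a positive difference over both times, with a median of 0.17. At an unadjusted p under 0.05, 3 were called higher (Apoa1, Ass1 and Ttr, background 3.82%). The summed level of the 9 listed was 55100 to 65500 FPKM in vehicle ZT0, 61800 to 69300 in vehicle ZT12, 63600 to 78300 in Libramed ZT0 and 65000 to 76000 in Libramed ZT12. All 9 stellate markers tested had a positive difference at ZT0 (median 0.28, with Des called), against 3 of 9 at ZT12 (median -0.01). The 2 neutrophil markers tested had a median of 0.89 over both times, and the summed level of 5 such markers was 0.827 to 10.5 FPKM in vehicle ZT0, 0.572 to 3.22 in vehicle ZT12, 6.11 to 10.9 in Libramed ZT0 and 2.32 to 18.8 in Libramed ZT12. Over both times the difference was negative for all 8 Kupffer cell (macrophage) markers tested (median -0.26). It was also negative for all 4 cholangiocyte (bile duct) markers tested (median -0.15). In each of these lists 1 marker was called lower at an unadjusted p under 0.05 (background 6.28%). The part of any of these markers in the treatment differences was not tested.

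Egfl7 was higher in each Libramed liver than in each vehicle liver of the same time. The mean level was 36.4% higher at ZT0 (log2 difference 0.42, SE 0.109, unadjusted p = 0.00566, adjusted p = 0.436) and 57.9% higher at ZT12 (log2 difference 0.6, SE 0.107, unadjusted p = 0.000837, adjusted p = 0.601). These comparisons share no sample. Egfl7 was the 1 member with an unadjusted p under 0.05 at both times, as were 0.235% of all genes. Over both times it was 44.7% higher (log2 difference 0.51, SE 0.0775, adjusted p = 0.075). Leaving out any one liver kept the difference between 0.47 and 0.56. Over 20 alternatives the adjusted p ran up to 0.24, and its lowest value was 0.0449, with a minimum mean of 5 FPKM. Agpat2, a gene on the other strand, shares 64 bases with Egfl7 exons, and use of strand in the counting is not given in the sources used here. Agpat2 had a mean of 270 FPKM. By limma it differed by -0.11 over both times (adjusted p = 0.702), by -0.29 at ZT0 (unadjusted p = 0.0503) and by 0.06 at ZT12. Gm20532, a protein-coding gene on the same strand, shares 264 bases with Egfl7 exons (7.37% of them) and is absent from the FPKM table. The part of either gene in the Egfl7 differences was not tested.

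Kdr was 52% higher with Libramed at ZT0 (log2 difference 0.38, SE 0.11, adjusted p = 0.469), where its groups did not overlap. At ZT12 its difference was 0.08 (SE 0.0894, adjusted p = 0.865), with overlap. Cdh5 differed by 0.23 at ZT0 (SE 0.0952, unadjusted p = 0.0491), a call lost without any of 5 of the 6 livers in turn, all but Libramed ZT0 replicate 2, with differences of 0.17 to 0.25. The call was also lost with a single fit of all 12 livers, with the replicate block and with the Cyber-T style test. Stab1 was 40.8% higher at ZT12 (log2 difference 0.38, SE 0.128, adjusted p = 0.729). That unadjusted call was lost without vehicle ZT12 replicate 3, Libramed ZT12 replicate 1 or Libramed ZT12 replicate 3, with differences of 0.25 to 0.5 over all livers left out. Tek differed by 0.27 at ZT0 (SE 0.113) and by 0.21 at ZT12 (SE 0.101), and by 0.24 over both times (unadjusted p = 0.00837, adjusted p = 0.465).

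Clec4g, Eng, Stab2 and Pecam1 had no call for treatment at either time. Their differences over both times were 0.24 (SE 0.13) for Clec4g, 0.08 (SE 0.0817) for Eng, 0.2 (SE 0.112) for Stab2 and 0.03 (SE 0.0992) for Pecam1. Lyve1 went the other way at ZT0, where it was lower in all 3 Libramed livers than in any vehicle liver (log2 difference -0.52, SE 0.13, unadjusted p = 0.01, adjusted p = 0.481). At ZT12 its difference was 0.01 (SE 0.101). Markers of Kupffer cells, the resident macrophages, were also lower with Libramed at ZT0: 5 of 8 tested (Vsig4, C1qa, Cd68, C1qb and Clec4f) had an unadjusted p under 0.05 (background 5.81% of all genes lower), 0 had an adjusted p under 0.05, and the median was -0.48. Their summed level was 73.2 to 84.9 FPKM in vehicle ZT0 and 42.5 to 67.7 FPKM in Libramed ZT0, with none of the 11 markers at 0, and their part in the Lyve1 result was not tested.

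The test of whether time differences depended on treatment gave no call among the 8 genes, either unadjusted (background 6.63%) or adjusted by limma (background 0%). Their interaction terms ran from -0.3 for Kdr to 0.27 for Stab1, with a median of 0.08. Omitting any of 4 livers (replicates 2 and 3 of vehicle ZT0, replicate 2 of vehicle ZT12 and replicate 1 of Libramed ZT0) made the unadjusted count 1 in place of 0.

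The order of the 4 groups was Libramed ZT0, vehicle ZT0, Libramed ZT12 and vehicle ZT12, from high to low mean, for 7 of the 10 genes (Egfl7, Cdh5, Kdr, Tek, Stab2, Clec4g and Eng). Pecam1 had both ZT0 groups in the opposite order, and there the neighbours overlapped. Stab1 had Libramed ZT12 first. All neighbouring groups overlapped for Stab1, and also for Tek and Stab2 among the 7. For Clec4g and Eng, the only neighbours without overlap were vehicle ZT0 and Libramed ZT12. The order for Lyve1 was vehicle ZT0, Libramed ZT12, vehicle ZT12 and Libramed ZT0, where only vehicle ZT0 stood apart from its neighbour. Between the highest and lowest liver the level differed 7.57-fold for Lyve1, 4.78-fold for Tek, 3.45-fold for Clec4g and 1.72-fold for Eng.

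**Figure D3:**
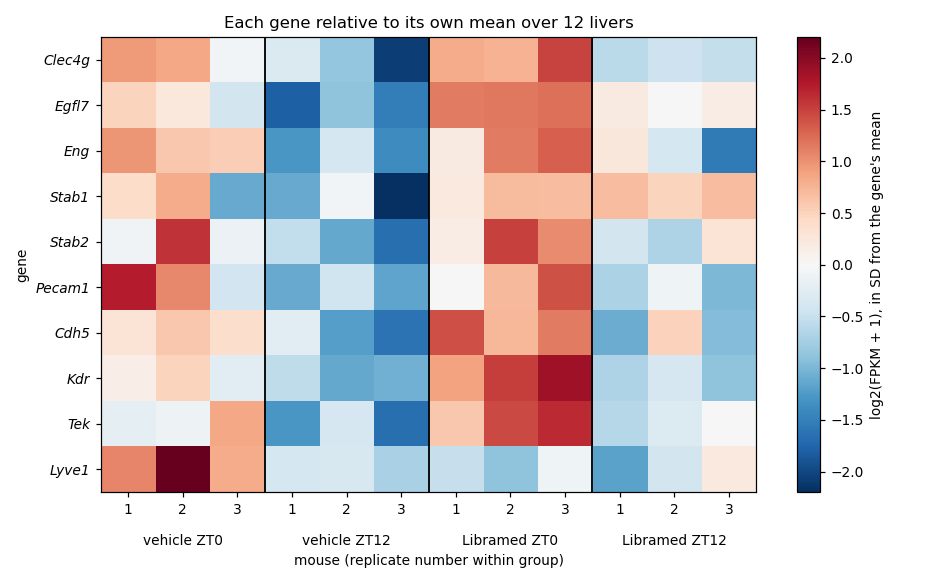
Each gene (rows) in each of the 12 livers (columns, by group and replicate number), coloured by log2(FPKM + 1) in SD from that gene's mean over all livers. Vehicle ZT12 livers are low for nearly every gene, Libramed ZT0 livers lie above or near the mean for all but Lyve1, and Lyve1 is high in the 3 vehicle ZT0 livers.

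Across the 12 livers the genes varied together, which is given as a description since livers share groups and depth. The 45 pairs had a median Pearson r of 0.69 (0.08 to 0.87), and the median was 0.27 once group means were removed. Clec4g was closest to the mean of the other 9 (r = 0.95) and Lyve1 farthest (r = 0.3). Among 6148 other genes whose mean reached 5 FPKM, the 10 most like the mean of the members were Aqp1 (r = 0.94), Rhog (0.92), Gpihbp1 (0.91), Ehd3 (0.91), Golga2, Tfe3, Dapk3, Cbs, Abcb11 and Ethe1 (0.87). Aqp1, Gpihbp1 and Ehd3 are on the endothelial lists used here, while Cbs and Abcb11 are genes of hepatocytes. Once group means were removed, r was 0.54 for Aqp1, 0.91 for Rhog, 0.71 for Gpihbp1 and 0.62 for Ehd3. It was 0.18 for Cbs, 0.16 for Abcb11 and 0.21 for Ethe1.

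Other genes listed here as sinusoidal, not all of them particular to that lining, were lower at ZT12 as well. Over both treatments, 10 of 12 tested (of 16 listed) were lower at an unadjusted p under 0.05 (background 19.3%). Of these, 9 had an adjusted p under 0.05 (background 13.8%), and the median of the 12 was -0.56. They included Aqp1, a water channel (-0.63, SE 0.0659), Rspo3, an amplifier of Wnt signalling (-0.68, SE 0.0911), Oit3 (-0.68, SE 0.114) and Ehd3, an endocytic recycling protein (-0.65, SE 0.108). Of 13 general endothelial genes tested (of 25 listed), 8 were lower and 6 passed adjustment (same backgrounds), with a median of -0.28. Among these were S1pr1, a receptor for sphingosine-1-phosphate (-0.55, SE 0.0781), Ptprb, the phosphatase VE-PTP (-0.44, SE 0.0709), the transcription factor Ets1 (-0.5, SE 0.0827) and Cldn5, a tight junction protein (-0.78, SE 0.143). Of 5 large-vessel, arterial, venous and capillary endothelial genes tested (of 14 listed), 4 were lower. Of these, Plvap (-0.53) and Nr2f2 (-0.3) passed adjustment (same backgrounds). Gja4 of this list rose at ZT12 with Libramed (0.43, SE 0.101, limma adjusted p = 0.0373) and differed by -0.14 (SE 0.113) with vehicle. Rasip1, a general endothelial gene, was also higher at ZT12 with Libramed (0.22, SE 0.08, limma unadjusted p = 0.0272).

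Ligands and partners of the receptors did not move as a block. Vegfa, the ligand of KDR, rose at ZT12 over both treatments (log2 difference 0.31, SE 0.0747, adjusted p = 0.00848). Its level was 53.5 ± 4.86 FPKM in vehicle ZT0, 63.7 ± 1.33 in vehicle ZT12, 57.1 ± 6.81 in Libramed ZT0 and 73.9 ± 8.14 in Libramed ZT12 (SD over 3 mice). In the list of VEGF and angiopoietin signalling, 2 of 8 tested were higher at an unadjusted p under 0.05 (Vegfa and Plcg1, background 21.7%) and 2 lower (Ptprb and Vegfc, background 19.3%), shares near those of all genes. Gdf2, which encodes the endoglin ligand BMP9, fell by 0.57 on the log2 scale (SE 0.112, adjusted p = 0.00243), and the ligand gene Bmp2 fell by 0.43 (SE 0.0765, adjusted p = 0.00137). Tgfbr2 rose (0.67, SE 0.0697, adjusted p = 3.76e-05), as did Hamp, the hepatocyte hormone hepcidin that BMP signalling controls (1.1, SE 0.262, adjusted p = 0.00774). By limma the Hamp difference was 0.63 with vehicle (SE 0.362, adjusted p = 0.31) and 1.57 with Libramed (SE 0.23, adjusted p = 0.00835). In that list of 15 tested genes, 3 were higher (background 21.7%) and 5 lower (background 19.3%), among the latter the inhibitory Smad6 (-0.39, SE 0.0902). Of 10 tested genes of hyaluronan and scavenger ligand handling, Colec12 rose (0.32, SE 0.0667). At an unadjusted p under 0.05, 5 were lower (background 19.3%). Among them were the clathrin heavy chain Cltc (-0.27, SE 0.0514) and the endocytic adaptor Dab2 (-0.45, SE 0.0931).

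With Libramed over both times, 5 of 12 other sinusoidal genes were higher at an unadjusted p under 0.05 (background 3.82%). The first 4 by p were Dnase1l3, Flt4, Aqp1 and Ehd3. Of 13 general endothelial genes, 5 were higher (same background), the first 4 being Gpihbp1, Sox18, Rasip1 and Ramp2. Of both lists, 0 genes passed adjustment by limma (background 0.0102%). Their medians were 0.13 and 0.2. Gpihbp1, which holds lipoprotein lipase on capillaries, differed by 0.46 (SE 0.119, adjusted p = 0.303) and the transcription factor Sox18 by 0.53 (SE 0.16, adjusted p = 0.358). At ZT0 the sinusoidal genes called higher were 4 (Dnase1l3, Fcgr2b, Flt4 and Gata4) and the general genes 1 (Gpihbp1, background 3.42%). At ZT12 there were 0 sinusoidal calls by limma and 4 general ones (Esam, Sox18, Rasip1 and Cldn5, background 3.07%). All were at an unadjusted p under 0.05. Whether the lists differed between times was not tested. In the signalling and ligand lists, Flt4 (0.3), Smad1 (0.27) and Ehd3 (0.25) were higher over both times (background 3.82%). Ap2b1 (-0.14) and Cltc (-0.12) were lower (background 6.28%), all at an unadjusted p under 0.05.

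Markers of other liver cells moved with the same groups in part. Of 9 stellate cell markers tested, 7 were lower at ZT12 over both treatments (background 19.3%) and 6 passed adjustment (background 13.8%), with a median of -0.4. Their summed level was 80.4 to 126 FPKM in vehicle ZT0, 76.8 to 115 in vehicle ZT12, 121 to 141 in Libramed ZT0 and 65 to 97.8 in Libramed ZT12. Of 8 Kupffer markers tested, 0 were called by limma for time over both treatments, adjusted or unadjusted, with a median of -0.17. With vehicle all 8 had a negative time difference (median -0.36), and with Libramed 3 did (median 0.04), again with 0 calls. Their interaction terms were positive for 8 of 8, with a median of 0.34 and 0 unadjusted calls, the same direction as for Lyve1, and their part in the Lyve1 interaction was not tested. Of 8 hepatocyte markers tested, 2 were higher at ZT12 (background 21.7%) and 0 lower (background 19.3%), with a median of 0.12. Alb was listed at 0. The FPKM total of a library was 660818 to 683569 in vehicle ZT0 and 692646 to 714284 in vehicle ZT12, and 634683 to 697287 in Libramed ZT0 and 717301 to 759355 in Libramed ZT12. The part of stellate markers and of these totals in the time differences was not tested.

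**Figure D4:**
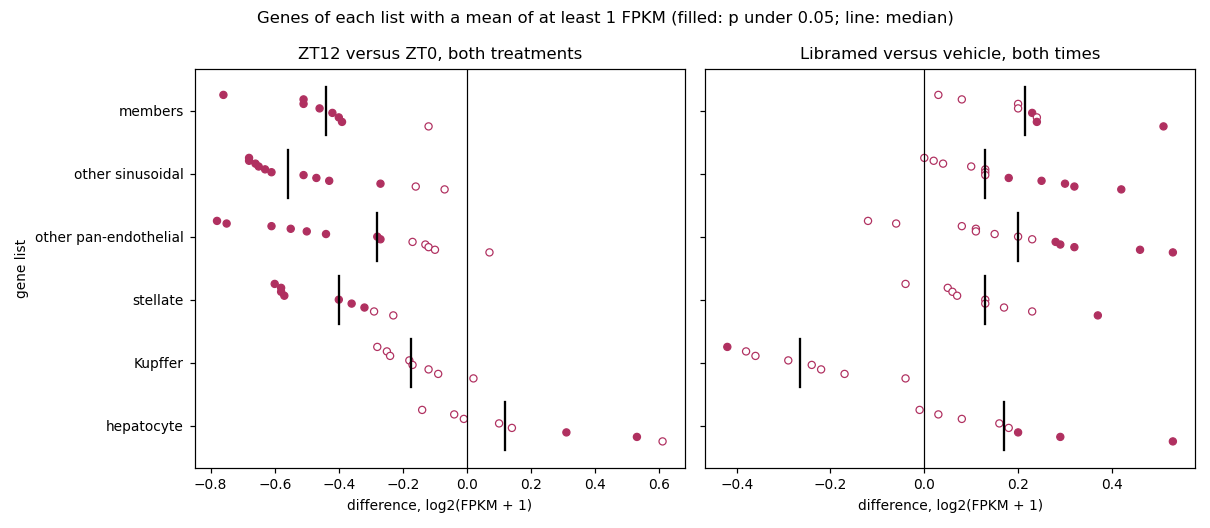
Fitted difference on the log2(FPKM + 1) scale (horizontal axis) of each tested gene in 6 lists (vertical axis), for ZT12 minus ZT0 over both treatments on the left and Libramed minus vehicle over both times on the right. Filled points have an unadjusted p under 0.05 and black lines are medians. On the left all genes of the endothelial and stellate lists lie below 0, except 1 of the other pan-endothelial list. Medians of these lists run from -0.56 to -0.28, and the Kupffer list has no filled point.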

How the data were processed

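Liver RNA of 12 mice was sequenced, with 3 biological replicates in each group per the labels. The authors deposited 1 table of FPKM per gene and mouse. The submitters' processing notes name TopHat and Cuffnorm on mm10 (GRCm38), while the study's methods describe ELAND alignment and RPKM, so which made the values is not settled here. The methods and the labels also name different library kits, one of them stranded. The table had 24138 lines. Where a symbol recurred (289 extra lines), only its line of highest mean entered, giving 23849 symbols.

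Values were compared as log2(FPKM + 1) with limma 3.58.1 (R 4.3.3, empirical Bayes with a mean-variance trend, two-sided, Benjamini-Hochberg adjustment over all genes tested), for the 9806 genes averaging 1 FPKM or more. Calls are given at an adjusted p of 0.05 and, following the study, at an unadjusted p of 0.05. Pairwise fits used 6 livers and the others all 12. Since absolute depth is unknown, no counting interval is given, and FPKM of low genes are imprecise. The members and all gene lists were chosen with earlier results of these data known. All 10 members are named, with, from each list, up to 4 genes of smallest unadjusted p under 0.05 and the 10 genes most like the members. The 4 are taken within a comparison, and Hamp was among them for time with Libramed. The fit was tested on simulated data. Alternatives were another pseudocount, other minimum levels, no trend, other scalings, a replicate block, a single fit, a Cyber-T style test and each liver left out. Overlapping genes that could share reads include Agpat2 and Gm20532 with Egfl7, Nt5dc2 with Stab1 and Fpgs with Eng. Sequences and gene models came from RefSeq (GRCm38.p6) and GENCODE (mm10).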

Additional observations from a re-analysis of the deposited data

Results flagged for a closer look

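The time difference of Lyve1 differed between treatments at an unadjusted p of 0.0113 by limma (interaction 0.52 on the log2 scale, SE 0.169, adjusted p = 0.675), in the fit with no minimum level. Leaving out any one liver gave interactions of 0.39 to 0.62 and no unadjusted p above 0.0317. The lowest adjusted p over these alternatives was 0.494. The same test of the difference between treatments singled out Gja4, a connexin of arterial endothelium, with an interaction of 0.57 (SE 0.152, unadjusted p = 0.00298, adjusted p = 0.519), with 1.73 ± 0.305 FPKM in vehicle ZT0, 1.47 ± 0.172 in vehicle ZT12, 1.43 ± 0.223 in Libramed ZT0 and 2.26 ± 0.186 in Libramed ZT12 (SD over 3 mice).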

How the results depend on the processing

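Of 192 repeats of the counts and medians under other settings than leaving out a liver, 174 stayed within 1.5 times the count or within the SD between mice of the genes' median (0.168), and none reversed. With vehicle, the median time difference became -0.67 with a pseudocount of 0.1 and -0.69 with that and no minimum level (tried after seeing the data). The 2 genes with an adjusted p under 0.05 became 0 with no minimum, with either pseudocount, 1 with the replicate block and 5 with the Cyber-T style test. A minimum mean of 5 FPKM left 3 of the 10 genes in the fit, so the unadjusted counts became 3 for time in each treatment and over both (3 also adjusted), and 1 for treatment at ZT0, at ZT12 and over both times, where 1 gene, Egfl7, also passed adjustment. Egfl7 passed adjustment at ZT12 (1 gene) with the Cyber-T style test, which called 69 genes in all at ZT0 and 23 at ZT12 where limma called 0 (905 and 661 unadjusted). Unadjusted interaction calls, 0 in the main analysis, were 2 with no minimum (Kdr and Lyve1), 1 with no minimum and the smaller pseudocount and 1 without the trend.

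Leaving out 1 liver in turn moved the vehicle time counts to 0 to 1 adjusted and 4 to 7 unadjusted, and the unadjusted counts to 4 to 7 for time with Libramed, 1 to 4 for treatment at ZT12, 2 to 5 for treatment over both times and 0 to 1 for the interaction. The 7 genes that fell over both treatments stayed 7 without any single liver. Replicate numbers did not pair the livers: of 18 same-numbered pairs 4 had deviations correlated above 0.1 (-0.279 to 0.341), and apart from the count of 1 above the block moved no count by over 1.5 times. Of 616 repeats of single-gene results with an unadjusted p under 0.05, 547 kept their call, 69 lost it (54 of them with a liver left out) and 0 reversed. Low FPKM and unknown depth limit Tek and Lyve1 most.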

Other observations

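The mean log2(FPKM + 1) of Stab1, Stab2, Lyve1 and Clec4g minus that of the other 6 was 0.31 ± 0.17 in vehicle ZT0, 0.23 ± 0.14 in vehicle ZT12, 0.07 ± 0.01 in Libramed ZT0 and 0.25 ± 0.15 in Libramed ZT12 (SD over 3 mice). In single livers it was 0.06 to 0.08 in Libramed ZT0 and 0.17 to 0.5 in vehicle ZT0. The other 3 groups overlapped, and differences between groups were not tested. At ZT0, Lyve1, with a mean under 1 FPKM, was lower with Libramed (log2 difference -0.52). Stab1 (0.11), Stab2 (0.14) and Clec4g (0.21) had positive differences there. The part of Lyve1 alone in the Libramed ZT0 value was not tested.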
